A study of Danio rerio with 12 samples.

Results

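The comparison described here asked whether the loss of prdm1 and the loss of pbx2/4 add in zebrafish embryos, gene by gene. All 12 RNA sequencing libraries of the series entered it, in 4 groups of 3, since the contrast needs every group. Double embryos were prdm1-/- and received pbx2/4 morpholinos. The prdm1 mutants were prdm1-/- and received a control morpholino, the pbx2/4 morphants were prdm1+/+ and received pbx2/4 morpholinos, and controls were prdm1+/+ with the control morpholino. Every embryo was of the AB strain, was injected as an egg of 1 cell and was collected at 10 somites. RNA was extracted from single whole embryos and pooled by genotype, so a library is a pool, and the labels do not name the prdm1 allele or the morpholino doses. The tested quantity, called the deviation below, was the log2 effect of prdm1 loss in pbx2/4 morphants (double minus pbx2/4 morphant) minus the log2 effect of prdm1 loss in controls (prdm1 mutant minus control). A deviation of 0 means that the folds of the single losses multiply in the double embryo.

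Prdm1 is a zinc finger transcriptional regulator that, in zebrafish, directs the muscle precursors next to the notochord into the slow fibre fate, and it also acts in Rohon-Beard sensory neurons, neural crest and hatching gland. Pbx2 and Pbx4 are homeodomain proteins that bind DNA with Hox and Meis partners and are required for hindbrain patterning. In zebrafish muscle, Pbx proteins also assist Myod in the activation of fast fibre genes. A slow fibre and a fast fibre use different myosin heavy and light chains, so the muscle genes are a readout that both regulators reach.

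The libraries held 9059663 to 17236848 counts. By the form of the column names they fall into 3 sets, called A, B and C here, each with 1 library of every group, and deviations from the group means correlated at 0.448 to 0.669 between libraries of the same set and at -0.483 to -0.0299 between sets. Deviations from a group mean cancel out within the group, so negative values between sets go with positive ones within sets. The set was a block in the test, as planned from the column names. Eggs came from separate collections, per the labels, which do not tie a column to a collection, so p-values measure the spread between these pools. Levels are CPM on normalised library sizes, and values of libraries are given in the order of sets A, B and C.

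The RNA of the targeted genes was present in every group. Prdm1a RNA was higher in prdm1 mutants than in controls, as described below, so its level does not report the mutation. Pbx2 RNA stood at 316, 232 and 280 CPM in double embryos, 63.6, 43.6 and 67.6 in mutants, 296, 225 and 259 in morphants and 67.7, 43.1 and 60.4 in controls. All libraries with pbx2/4 morpholinos lay above all others, by 2.25 log2 units in prdm1-/- embryos and by 2.2 in prdm1+/+ embryos (edgeR quasi-likelihood test, adjusted p = 1.50e-09 and 2.13e-09). Its deviation was 0.05 (95% interval -0.18 to 0.27), so the rise with and without prdm1 differed by no more than that interval allows. Pbx4 RNA averaged 441 ± 75.1 CPM in double embryos, 324 ± 43.9 in mutants, 438 ± 43.2 in morphants and 330 ± 39.7 in controls (SD, n = 3 each). It was also higher with the morpholinos, by 0.44 in prdm1-/- and 0.41 in prdm1+/+ embryos (edgeR, adjusted p = 5.89e-05 and 1.03e-04). The deviation of pbx4 was 0.03 (interval -0.12 to 0.18). A morpholino can block translation without lowering its RNA, so neither level reports the loss of the protein.

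No gene was called as deviating from a product of folds. Of 18117 genes tested, 0 (0%) passed an adjusted p under 0.05 with edgeR's quasi-likelihood test, and the smallest adjusted p was 0.408. At an unadjusted p under 0.05 there were 523 genes (2.89%), a smaller share than that threshold alone gives where no gene deviates. Of these, 279 had a higher and 244 a lower level in double embryos than the product gives. DESeq2 and limma also called 0 genes, with 193 and 519 at an unadjusted p under 0.05. The median deviation of all genes was 0.00, and 9225 of them (50.9%) lay above 0. A call that is absent does not show that a gene adds: how much room each gene had to deviate is given next to its value below.

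**Figure D1:**
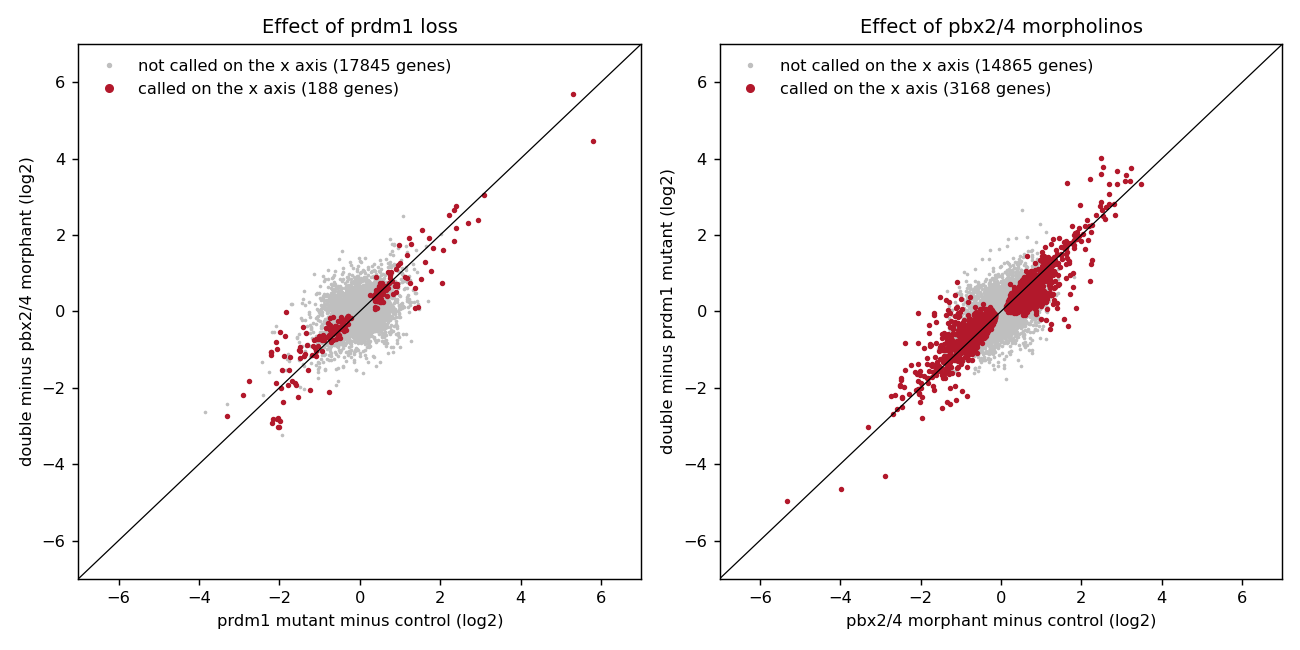
Log2 effect of prdm1 loss (left) and of the pbx2/4 morpholinos (right) in embryos that carry the other loss (y axis) against embryos that do not (x axis). Each point is 1 of 18033 genes with 10 or more counts in every group, red points were called on the x axis (188 genes left, 3168 right), and the black line marks equal effects; most red points lie along it.

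Nearly all genes called with prdm1 loss in one pbx2/4 background had an effect of the same sign in the other. Among embryos with pbx2/4 morpholinos, 128 genes were higher (0.707% of those tested) and 90 lower (0.497%) in double embryos than in pbx2/4 morphants. Among embryos with the control morpholino, 89 genes were higher (0.491%) and 110 lower (0.607%) in prdm1 mutants than in controls. These effects were measured in different libraries, so each can be read in the other. All 89 genes that rose in controls had a positive effect in morphants, and 63 of them (70.8%) were called there, against 0.707% of all genes. All 110 that fell had a negative effect in morphants and 61 (55.5%) were called, against 0.497% of all genes. Of the genes called in morphants, all 128 that rose and 89 of the 90 that fell had an effect of the same sign in controls. The exception was CU302436.2, a gene of low level at -2.89 in morphants and 0.71 in controls (edgeR, adjusted p = 0.0159 and 0.747). No gene was called in opposite directions.

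The pbx2/4 effect was far broader, and nearly all genes called in prdm1+/+ embryos had an effect of the same sign in prdm1-/- embryos. In prdm1-/- embryos, 1308 genes (7.22%) were higher and 1627 (8.98%) lower in doubles than in prdm1 mutants. With prdm1 intact, 1400 genes (7.73%) were higher and 1803 (9.95%) lower in pbx2/4 morphants than in controls. Of the 1400 genes that rose with prdm1 intact, 1380 had a positive effect in prdm1-/- embryos and 828 (59.1%) were called. Of the 1803 that fell, 1780 had a negative effect and 1235 (68.5%) were called, and none of either list was called in the opposite direction.

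The effects were smaller in the background that had not been used to choose the genes, in both directions of reading. The 89 genes that rose with prdm1 loss in controls had a median effect of 0.72 in morphants and 0.80 in controls. Read the other way, the 128 genes that rose in morphants had a median effect of 0.73 in morphants and 0.56 in controls. A gene picked for a large value in one set of libraries tends to have a smaller one elsewhere, so these medians are a description and the deviation of such genes was not tested as a list.

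The size of a deviation that could be seen depended on the level of the gene. Over the 18033 genes with 10 or more counts in each group, the median standard error of the deviation was 0.19 log2 units, its 95% interval reached 0.40 to either side (1.32-fold), and a gene standing alone would have needed 1.43 log2 units (2.7-fold) to be called. In the lowest quartile of mean level, up to 3.29 CPM, the need was 3.44 log2 units. It was 1.85 between 3.29 and 12.5 CPM, 1.1 between 12.5 and 41.2 CPM, and 0.73 (1.66-fold) above that.

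Large departures were nevertheless bounded for most genes. The 95% interval lay wholly within 1 log2 unit of 0 in 13945 genes (77.3%), and within 0.5 log2 units in 8351 (46.3%). Among the genes above 41.2 CPM these shares were 99.8% and 95.6%, while among those below 3.29 CPM they were 21.7% and 0.113%. Of the 199 genes changed by prdm1 loss in controls, the interval lay within 1 log2 unit for 61 of the 82 that rose and 68 of the 106 that fell and had an interval.

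**Figure D2:**
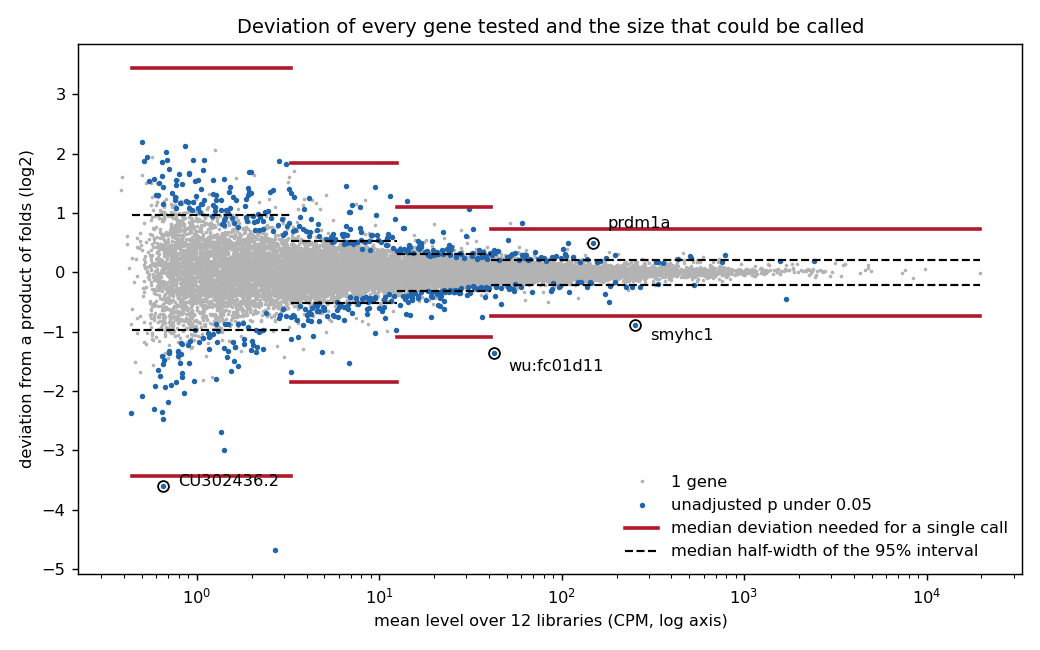
Deviation from a product of folds (y axis, log2) against the mean level over the 12 libraries (x axis, CPM, log axis) for all 18117 genes, with the 523 genes at an unadjusted p under 0.05 in blue. Red lines mark the median deviation a gene needs to be called by itself in each quartile of mean level (3.44, 1.85, 1.1 and 0.73) and dashed lines the median reach of the 95% interval.

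Prdm1a itself had the smallest p of all genes. Its RNA stood at 239, 218 and 225 CPM in double embryos, 144, 132 and 141 in mutants, 127, 110 and 129 in morphants and 106, 94.8 and 114 in controls. Every double library lay above all 9 others, and every prdm1 mutant library lay above all morphant and control libraries. The effect of prdm1 loss on its own RNA was 0.90 in morphants and 0.41 in controls (edgeR, adjusted p = 8.36e-07 and 0.00170).

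The deviation of prdm1a was 0.49 ± 0.08 (SE), with a 95% interval of 0.32 to 0.66, an unadjusted p of 2.25e-05 and an adjusted p of 0.408 in edgeR. It would have needed 0.60 to be called. The 3 sets gave 0.47, 0.51 and 0.49. A product of the single folds would put double embryos at 162 ± 9.80 CPM and a sum of the single changes at 156 ± 8.91 CPM, against the 227 ± 10.6 CPM measured (SD over 3 sets). All 21 other ways of running the test kept the direction, with deviations of 0.44 to 0.53, but they reuse the same libraries. The smallest adjusted p among them was 0.0524 with DESeq2. The largest unadjusted p was 0.00648, in edgeR without the set as a block.

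The gene named prdm1b appears under a pair of identifiers, ENSDARG00000053592 and ENSDARG00000078168, whose deviations were -0.16 (interval -0.99 to 0.66) and -0.18 (-1.04 to 0.69). Both were low, at means of 4.08 and 2.25 CPM.

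**Figure D3:**
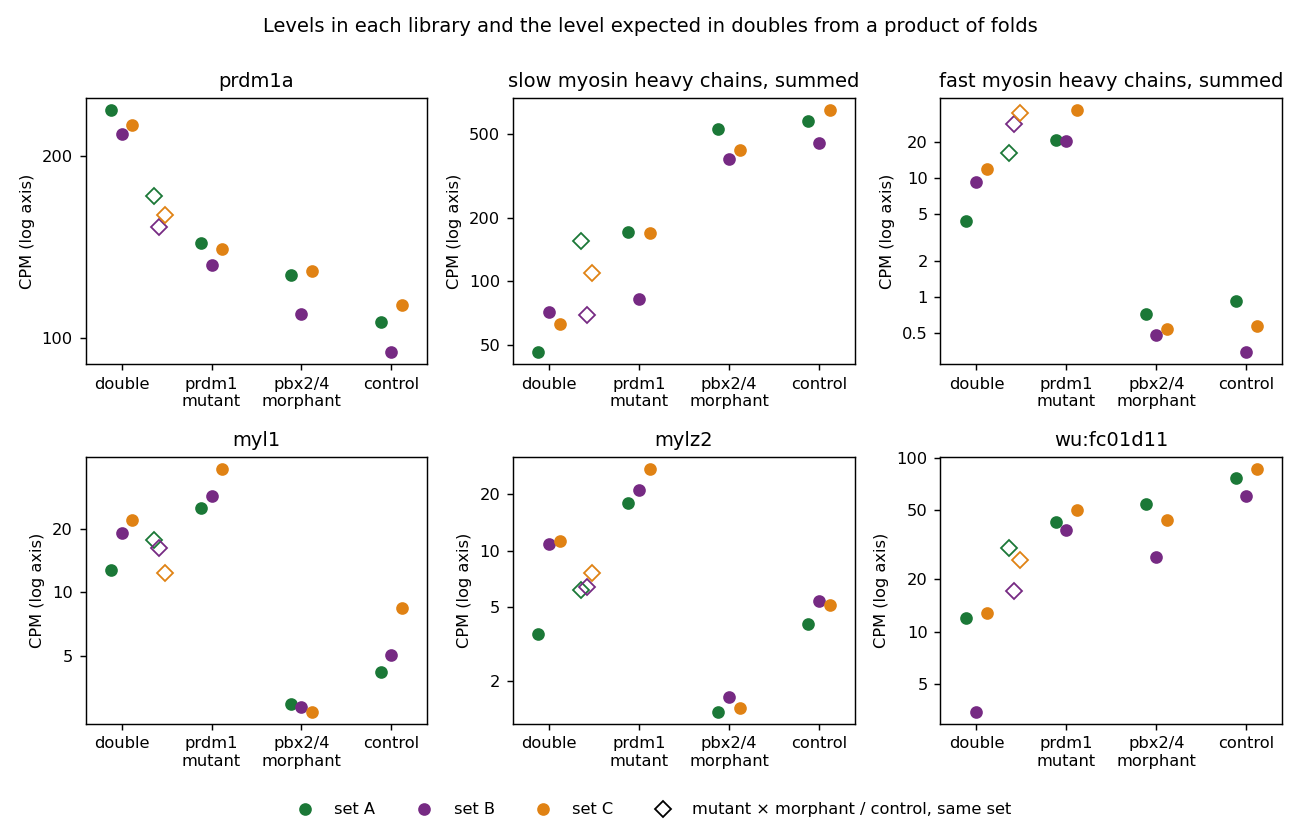
CPM (log axis) in every library for prdm1a, the summed slow and fast myosin heavy chain genes, myl1, mylz2 and wu:fc01d11, with the 4 groups along the x axis and sets in colour. Open diamonds give the level that a product of the single folds predicts for the double library of the same set; measured doubles lie above all diamonds of prdm1a (218 to 239 CPM) and below all of the fast myosin heavy chains (4.36 to 11.9 CPM) and wu:fc01d11 (3.46 to 12.8 CPM).

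In slow muscle, prdm1 loss lowered the myosin heavy chains in both backgrounds, and the double embryos had the least. Smyhc1, smyhc2 and smyhc3 are near-identical in sequence, so reads of these heavy chain genes can be divided among them and their sum is given. The sum stood at 46.3, 71.3 and 63.0 CPM in double embryos, 171, 82.6 and 169 in mutants, 529, 378 and 419 in morphants and 578, 450 and 650 in controls. All double libraries lay below all mutant libraries, which lay far below the others, while morphants and controls overlapped. In whole-embryo pools, fewer slow fibres and less RNA in each fibre cannot be told apart.

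The summed slow chains fell with prdm1 loss by 2.86 log2 units in morphants and by 2.01 in controls (edgeR, adjusted p = 4.72e-06 and 7.76e-05). The pbx2/4 effect was -1.19 in prdm1-/- embryos (adjusted p = 0.00152) and -0.33 in prdm1+/+ embryos (adjusted p = 0.248). These effects were not shown to differ: the deviation was -0.86 ± 0.28 (SE; interval -1.46 to -0.26), with an unadjusted p of 0.00834 and an adjusted p of 1 in edgeR. The sets differed, at -1.75, 0.04 and -0.79. The prdm1 mutant library of set B was the lowest of its group at 82.6 CPM. Without that set the deviation was -1.25 (adjusted p = 0.161), while without set A it was -0.42.

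On the linear scale the mean of the slow chains in double embryos lay between the predictions, but the sets did not share this. A product of folds gives 112 ± 43.4 CPM, a sum of changes gives 23.5 ± 92.4 CPM, and 60.2 ± 12.8 CPM was measured (SD over 3 sets). Measured minus sum was -75.4, 60.7 and 125 CPM in sets A, B and C, so set A lay below both predictions and set B above both. In set C the difference exceeds the 63.0 CPM measured, so the sum there is below 0, a level that cannot occur. Smyhc1, smyhc2 and smyhc3 had deviations of -0.89, -0.76 and -0.65, which are not separate evidence, given the shared reads.

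The other slow fibre genes had smaller deviations in either direction. Of 18 slow muscle genes tested, prdm1 loss lowered 7 in morphants and 7 in controls (0.497% and 0.607% of all genes tested), 6 of them in both, and raised 1 in both backgrounds (0.707% and 0.491% of all genes). None was called in the deviation, the median was -0.08, and the 3 myosin genes were the only members at an unadjusted p under 0.05. MYL4, a myosin light chain, averaged 4.04 ± 0.51 CPM in double embryos, 9.56 ± 4.24 in mutants, 20.9 ± 2.91 in morphants and 37.1 ± 7.01 in controls (SD, n = 3 each). Its deviation was -0.44 (interval -1.17 to 0.28). Tnnt2c, a troponin T, averaged 24.6 ± 5.59 CPM in double embryos, 28.0 ± 2.89 in mutants, 40.8 ± 3.36 in morphants and 55.3 ± 5.38 in controls, with a deviation of 0.26 (interval -0.10 to 0.63).

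Mybpc1, the slow myosin-binding protein C, was the slow muscle gene that rose with prdm1 loss. It stood at 8.62, 3.15 and 6.24 CPM in double embryos, 5.15, 1.45 and 4.05 in mutants, 1.77, 0.58 and 1.60 in morphants and 0.82, 0.23 and 0.88 in controls. Prdm1 loss raised it by 2.17 in morphants and 2.39 in controls (edgeR, adjusted p = 4.35e-05 and 1.17e-04), and the pbx2/4 morpholinos raised it by 0.76 in prdm1-/- and 0.98 in prdm1+/+ embryos (adjusted p = 0.00902 and 0.0323). The deviation was -0.22 (interval -0.93 to 0.50). Within each set the order of the groups was the same.

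The 7 fast muscle genes that rose with prdm1 loss in controls were all called lower in double embryos than in prdm1 mutants. Of all genes tested, 8.98% were called lower there. The mutant libraries that chose these 7 genes are also the baseline of this comparison, which favours lower values. Several of the 7 are heavy chains that share sequence, so the count is a description only. The heavy chains of doubles lay below the product of folds in every set, and the light chains lay around it. Fast myosin heavy chain genes (myhz1.1, myhz1.2, myhz1.3, myhz2 and myhc4) also share sequence and were summed. The sum stood at 4.36, 9.12 and 11.9 CPM in double embryos, 20.6, 20.4 and 37.1 in mutants, 0.72, 0.48 and 0.53 in morphants and 0.93, 0.34 and 0.57 in controls. Doubles lay below all mutants and above all morphants and controls, which overlapped. The morphant values rest on 9, 5 and 9 counts and the control values on 9, 3 and 9, against 50, 87 and 207 in doubles and 256, 183 and 559 in mutants.

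Prdm1 loss raised the summed fast heavy chains by 3.87 log2 units in morphants and 5.46 in controls (edgeR, adjusted p = 2.84e-05 and 4.67e-07). The pbx2/4 effect was -1.64 in prdm1-/- embryos (adjusted p = 1.04e-04) and -0.05 in prdm1+/+ embryos, where the libraries held 3 to 9 counts. The deviation was -1.59 ± 0.62 (SE; interval -2.93 to -0.26), with an unadjusted p of 0.0226 and an adjusted p of 1. It was negative in each set, at -1.90, -1.49 and -1.57. Product and sum both predict about the same level, 26.5 ± 9.61 and 26.0 ± 9.60 CPM, against 8.44 ± 3.79 CPM measured. Myhz1.3, the most abundant of the 5, had a deviation of -1.34 (interval -3.09 to 0.41), and the others had too few counts in controls or morphants for an interval.

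The fast light chains lay near the product of folds. Myl1, the alkali light chain of fast fibres, stood at 12.7, 19.0 and 21.9 CPM in double embryos, 25, 28.4 and 38.1 in mutants, 2.97, 2.88 and 2.73 in morphants and 4.22, 5.05 and 8.44 in controls. The groups did not overlap. Prdm1 loss raised it by 2.65 in morphants and 2.35 in controls, and pbx2/4 knockdown lowered it by 0.78 in prdm1-/- and 1.08 in prdm1+/+ embryos, each with an adjusted p under 0.05 in edgeR.

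The deviation of myl1 was 0.30 (interval -0.21 to 0.81), with -0.48, 0.20 and 0.77 in the sets. A product predicts 15.4 ± 2.74 CPM, a sum 27.5 ± 4.45 CPM, and 17.9 ± 4.67 CPM was measured, below the sum in all 3 sets. Mylz2, the phosphorylatable fast light chain, averaged 8.55 ± 4.32 CPM in double embryos, against a product of 6.71 ± 0.80 and a sum of 18.8 ± 4.31 CPM. Its deviation was 0.30 (interval -0.49 to 1.08), with set A at -0.83, set B at 0.68 and set C at 0.47. The light and heavy chains were not tested against each other.

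Across 22 fast muscle genes tested, prdm1 loss raised 8 in morphants and 7 in controls (0.707% and 0.491% of all genes tested), the 7 being shared, and lowered none. Pbx2/4 knockdown lowered 13 in prdm1-/- and 8 in prdm1+/+ embryos (8.98% and 9.95% of all genes), and all 8 were among the 13. It raised 1 gene, tnni2b.1, in both. No member was called in the deviation by edgeR, 1 higher and 1 lower had an unadjusted p under 0.05, and the median was 0.05. Atp2a1, the calcium pump of the fast fibre sarcoplasmic reticulum, averaged 18.1 ± 5.71 CPM in double embryos, 46.7 ± 5.08 in mutants, 4.84 ± 0.99 in morphants and 19.7 ± 6.1 in controls (SD, n = 3 each). Doubles and controls overlapped, at 12.6 to 24.0 and 14.8 to 26.5 CPM. Its deviation was 0.69 (interval 0.04 to 1.33; unadjusted p = 0.0378, adjusted p = 1 in edgeR), but the sets gave -0.15, 0.15 and 1.69. Srl, which encodes the calcium-binding sarcalumenin, fell with pbx2/4 knockdown by 1.58 in prdm1-/- and 1.68 in prdm1+/+ embryos. Its prdm1 effects, -0.16 in morphants and -0.25 in controls, were not called, and its deviation was 0.09 (interval -0.42 to 0.61).

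Among genes used by every muscle fibre and muscle regulators, none was called in the deviation by edgeR either. Of 44 pan-muscle genes tested, pbx2/4 knockdown lowered 11 in prdm1-/- and 17 in prdm1+/+ embryos (8.98% and 9.95% of all genes tested), 10 in both. It raised the same 3 in each (7.22% and 7.73% of all genes), and the median deviation was 0.11. Acta1b, a skeletal actin, averaged 19.4 ± 4.05 CPM in double embryos, 51.3 ± 3.17 in mutants, 19.3 ± 4.29 in morphants and 63.0 ± 5.33 in controls. Its deviation was 0.32 (interval -0.11 to 0.76). Xirp1, an actin-binding protein of muscle, fell with prdm1 loss by 1.03 in morphants and 1.09 in controls, with a deviation of 0.06 (interval -0.29 to 0.41). Myog, the regulator of muscle differentiation, averaged 20.3 ± 2.72 CPM in double embryos, 40.2 ± 4.60 in mutants, 11.2 ± 3.17 in morphants and 30.0 ± 5.17 in controls, with a deviation of 0.44 (interval -0.05 to 0.94).

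There were 49 genes called in both single losses, and none of them was called in the deviation by edgeR. An unadjusted p under 0.05 was reached by 9 of the 49, against 2.89% of all genes tested. They form 4 classes: 25 fell with each loss, 10 rose with each, 10 rose with prdm1 loss and fell with pbx2/4 knockdown, and 4 fell with prdm1 loss and rose with knockdown. The median deviation was 0.21 where both losses lowered a gene, -0.22 where both raised it, 0.30 where prdm1 loss raised and knockdown lowered it, and 0.07 in the remaining class. Both single effects are measured against the same controls, which also enter the deviation. The count of 9 and these medians are therefore a description only. Of the 25 genes that fell with each loss, 23 lay nearer in double embryos to the product than to the sum, while of the 10 that rose with each, 7 lay nearer to the sum. Where both effects share a sign, the product is the higher prediction by construction. A sum below 0, such as -6.63 CPM for MYL4, was counted as 0.1 CPM. For genes that fell with each loss, this favours the product by construction. The shared controls enter these counts too, and they were not set against all genes, so they are also a description only.

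Among those 49 genes, the 10 with the smallest standard errors show how narrow the interval of a deviation could be. Fscn1, an actin-bundling protein, averaged 135 ± 8.56 CPM in double embryos, 173 ± 10.1 in mutants, 175 ± 25.8 in morphants and 224 ± 12.7 in controls, and its deviation was 0.00 (interval -0.21 to 0.21). Calrl, an endoplasmic reticulum chaperone related to calreticulin, had a deviation of -0.04 (interval -0.19 to 0.10) and fell by 0.33 with prdm1 loss in morphants and 0.29 in controls. Elavl3, a neuronal RNA-binding protein, had one of -0.05 (interval -0.21 to 0.12). Mtdhb, CR944667.4, tfa, anxa2a and he1a had deviations of 0.02, 0.04, 0.14, 0.17 and 0.17, each with an interval that held 0. Such an interval can also hold the loss of a whole small effect. That of anxa2a reached 0.35, while its pbx2/4 effect was -0.02 in prdm1-/- and -0.19 in prdm1+/+ embryos. The prdm1 effect on tfa was -0.19 in morphants, where it was not called, and -0.34 in controls. Rbp1a, a retinol-binding protein, and prdm1a were the members whose interval did not hold 0.

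Rbp1a stood at 30.8, 37.5 and 42.2 CPM in double embryos, 31.8, 36.1 and 45.1 in mutants, 36.7, 38.9 and 47.3 in morphants and 47.7, 46.5 and 60.0 in controls. The doubles were no lower than the prdm1 mutants in set B and lower by little in the others. Its deviation was 0.30 (interval 0.07 to 0.52; unadjusted p = 0.0129, adjusted p = 1 in edgeR), with 0.33, 0.31 and 0.25 in the sets.

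**Figure D4:**
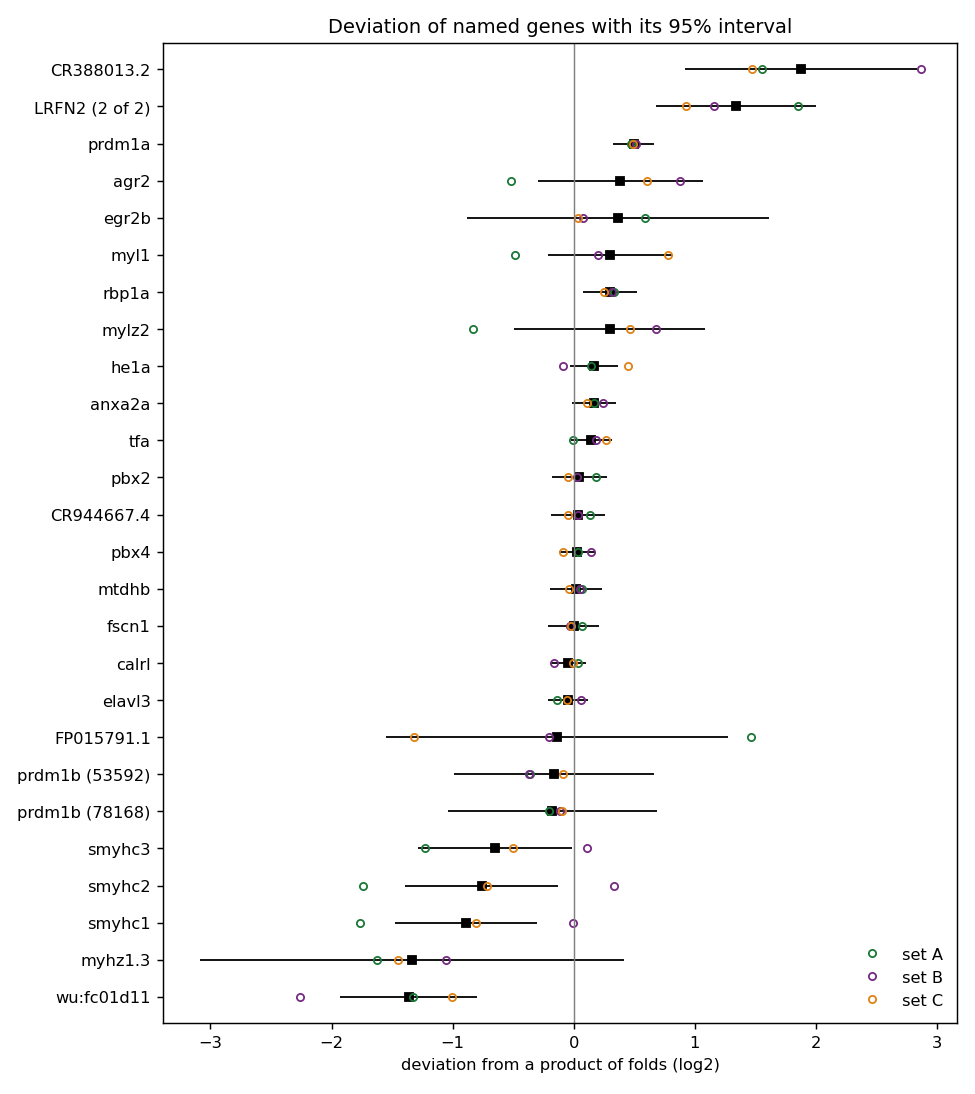
Deviation from a product of folds (x axis, log2) with its 95% interval (black) and the value in each set (open circles) for genes named by rule and reported here that had an interval reaching less than 2.5 log2 units to either side. The 3 sets of prdm1a lie together at 0.47 to 0.51, while those of smyhc1 run from -1.77 to -0.01; bracketed numbers end the identifiers of the pair of prdm1b entries.

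Pbx2/4 knockdown lowered 17 of the 35 hindbrain and rhombomere genes tested in both prdm1 genotypes, against 1235 of all 18117 genes. In all, 18 fell in prdm1-/- and 19 in prdm1+/+ embryos (8.98% and 9.95% of all genes tested), 1 rose in both, and the rest did not pass the test in one or both. Prdm1 loss had a median effect of 0.03 in morphants and 0.04 in controls. It raised 1 member in morphants (0.707% of all genes tested), and no other call was made for it in this list. The median deviation was 0.02, and no member reached an unadjusted p under 0.05. Egr2b, a zinc finger factor of the hindbrain, stood at 3.22, 0.10 and 1.83 CPM in double embryos, 60.8, 51.0 and 56.0 in mutants, 1.93, 0.10 and 1.78 in morphants and 56.5, 52.0 and 55.9 in controls. The groups with pbx2/4 morpholinos lay far below those without, and set B was the lowest of both.

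Egr2b fell by 4.97 in prdm1-/- and 5.33 in prdm1+/+ embryos (edgeR, adjusted p = 5.11e-07 and 6.02e-07), with a deviation of 0.37 (interval -0.88 to 1.61). Mafba, a bZIP factor of the posterior hindbrain, averaged 12.8 ± 4.75 CPM in double embryos, 60.9 ± 1.68 in mutants, 10.8 ± 3.83 in morphants and 59.7 ± 6.02 in controls, with a deviation of 0.22 (interval -0.42 to 0.85). Cyp26b1, an enzyme that degrades retinoic acid, fell by 3.03 in prdm1-/- and 3.32 in prdm1+/+ embryos, with a deviation of 0.29 (interval -0.34 to 0.92).

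Of 14 genes of Hox paralog groups 1 to 4, which pattern the hindbrain, 8 fell in prdm1-/- and 9 in prdm1+/+ embryos (8.98% and 9.95% of all genes tested) and none rose, with a median deviation of -0.02. Hoxa3a stood at 22.0, 28.4 and 22.1 CPM in double embryos, 50.3, 55.2 and 54.7 in mutants, 23.6, 23.2 and 22.5 in morphants and 44.4, 55.2 and 51.3 in controls. Its deviation was -0.04 (interval -0.30 to 0.22). Aldh1a2, which makes retinoic acid, averaged 39.7 ± 12.5 CPM in double embryos, 72.4 ± 13.8 in mutants, 38.5 ± 11 in morphants and 68.1 ± 18.2 in controls, with a deviation of -0.07 (interval -0.29 to 0.15). The retinoic acid pathway moved in both directions: of 25 genes tested, 6 fell in prdm1-/- and 6 in prdm1+/+ embryos (8.98% and 9.95% of all genes), the same 6 in both, and 6 rose in each (7.22% and 7.73% of all genes), 3 of them in both. The median deviation was -0.01.

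In 41 forebrain, midbrain and eye genes tested the median deviation was 0.04. Pbx2/4 knockdown lowered 12 of them in prdm1-/- and 16 in prdm1+/+ embryos (8.98% and 9.95% of all genes tested). It raised 6 and 4 (7.22% and 7.73% of all genes). Prdm1 loss lowered only 2 in morphants and 1 in controls (0.497% and 0.607% of all genes). It raised 1 in morphants (0.707% of all genes) and none in controls. Foxg1a, a forebrain regulator, fell with prdm1 loss by 0.65 in morphants and 0.74 in controls, with a deviation of 0.10 (interval -0.21 to 0.40).

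The DNA damage response and cell cycle genes moved with the morpholinos in many members, and the median deviation of each list was close to 0. Of 38 DNA damage response genes tested, 18 rose in prdm1-/- embryos and the same 18 in prdm1+/+ embryos (7.22% and 7.73% of all genes tested), while 2 fell in prdm1-/- and 3 in prdm1+/+ embryos (8.98% and 9.95% of all genes). The median effect of prdm1 loss was 0.06 in morphants and -0.02 in controls. Their median deviation was 0.08, with members from -0.66 to 0.82, and 33 of 38 intervals lay within 1 log2 unit of 0. Of the 38 genes, 29 lay above 0, against 50.9% of all genes, and none reached an unadjusted p under 0.05 in edgeR. Genes of a list share libraries and are not independent, so this count is a description only. Mdm2, a ubiquitin ligase of the DNA damage response, stood at 343, 284 and 286 CPM in double embryos, 72.0, 139 and 73.1 in mutants, 291, 291 and 304 in morphants and 79.5, 133 and 80.0 in controls. Every library with pbx2/4 morpholinos lay above the rest, and among the rest set B was the highest. Its deviation was 0.10 (interval -0.44 to 0.65), and that of ccng1, which encodes cyclin G1, was 0.01 (interval -0.51 to 0.54).

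Of 49 cell cycle and DNA replication genes, 35 fell in prdm1-/- and 38 in prdm1+/+ embryos (8.98% and 9.95% of all genes tested), 35 in both, and none rose. Their median deviation was 0.01, and 48 of 49 intervals lay within 1 log2 unit of 0. Mcm5, a subunit of the replicative helicase, averaged 211 ± 21.8 CPM in double embryos, 376 ± 13 in mutants, 213 ± 32.3 in morphants and 366 ± 6.11 in controls, with a deviation of -0.05 (interval -0.27 to 0.18). Rises of DNA damage response genes and falls of replication genes accompany every pbx2/4 comparison here, with and without prdm1, and their part in the other pbx2/4 effects was not tested.

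A minority of the sensory neuron and hatching gland genes passed the test for prdm1 loss. Of 36 Rohon-Beard and sensory neuron genes tested, 6 fell in morphants and 7 in controls (0.497% and 0.607% of all genes tested), 5 in both. In the other direction 2 rose in morphants and 1 in controls (0.707% and 0.491% of all genes), 1 in both, and the median deviation was -0.02. Isl1, a LIM homeodomain factor of these neurons, stood at 9.58, 8.60 and 11.1 CPM in double embryos, 9.25, 9.80 and 8.76 in mutants, 23.0, 20.4 and 21.4 in morphants and 21.4, 17.9 and 23.7 in controls. The prdm1-/- libraries all lay below the prdm1+/+ libraries, and within each genotype the pbx2/4 and control morpholino ranges overlapped. Its deviation was 0.06 (interval -0.29 to 0.41). Drgx, a homeobox gene of sensory neurons, fell by 2.24 in morphants and 1.53 in controls, with a deviation of -0.71 (interval -1.48 to 0.07), negative in all 3 sets.

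Stmn2a, a tubulin-binding protein of neurons, had the largest deviation of that list, at 1.45 (interval 0.35 to 2.54; unadjusted p = 0.0135, adjusted p = 1 in edgeR). It stood at 5.66, 4.72 and 4.01 CPM in double embryos, 1.85, 4.01 and 3.19 in mutants, 6.19, 3.36 and 10.8 in morphants and 16.8, 7.23 and 11.4 in controls. Its sets ran from 0.40 to 2.95, and the morphant libraries overlapped the doubles.

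Of 16 hatching gland genes tested, prdm1 loss raised 3 and lowered 2 in each background, against 0.707% raised and 0.497% lowered of all genes in morphants and 0.491% and 0.607% in controls. The 3 that rose were prdm1a, the mutated gene itself, agr2 and SPDEF. Agr2, an endoplasmic reticulum protein of secretory cells, had the largest prdm1 effect in morphants among the 18033 genes with an interval. It stood at 82.1, 77.0 and 175 CPM in double embryos, 133, 80.7 and 202 in mutants, 2.17, 1.83 and 2.55 in morphants and 2.47, 3.67 and 4.60 in controls. The rise was 5.69 in morphants and 5.30 in controls, with a deviation of 0.38 (interval -0.30 to 1.06). He1a and he1b, which encode hatching enzymes, fell with prdm1 loss by 0.61 and 0.91 in morphants and by 0.78 and 1.16 in controls. He1b averaged 89.0 ± 30.8 CPM in double embryos, 64.2 ± 18.1 in mutants, 165 ± 41.1 in morphants and 145 ± 49.8 in controls, with a deviation of 0.25 (interval 0.02 to 0.48; unadjusted p = 0.0336, adjusted p = 1 in edgeR). The sets gave 0.15, 0.03 and 0.53 for he1b, so set C was the largest.

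**Figure D5:**
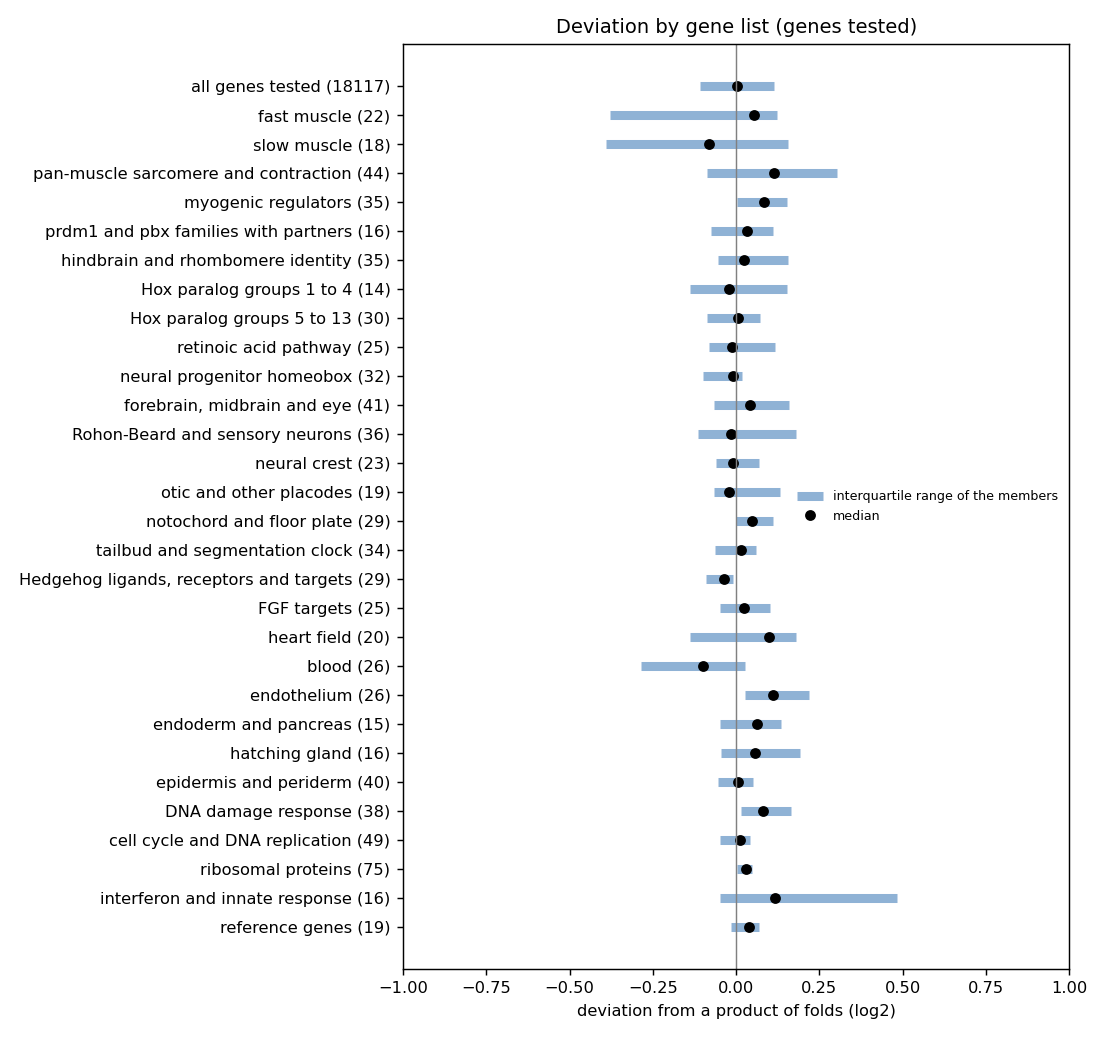
Median deviation (points, log2) and interquartile range (bars) for 29 gene lists and for all genes tested, with the number of genes tested in brackets. Medians lie between -0.10 (blood) and 0.12 (interferon and innate response), and no gene of any list was called.

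Outside the lists, wu:fc01d11 had the lowest p of the genes with a deviation below 0 and an interval. It stood at 12, 3.46 and 12.8 CPM in double embryos, 43.1, 38.5 and 50.6 in mutants, 54.7, 27 and 44.1 in morphants and 77.3, 60.3 and 86.2 in controls. Doubles lay below all others, controls above all others, and the single losses overlapped. Its deviation was -1.36 (interval -1.93 to -0.80; unadjusted p = 1.47e-04, adjusted p = 0.889 in edgeR), with -1.33, -2.26 and -1.01 in the sets. Measured doubles, at 9.41 ± 5.17 CPM, were below the product of 24.5 ± 6.71 CPM and near the sum of 11.4 ± 8.03 CPM, so on the linear scale the sets lay on either side of the sum.

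Of the genes named for large single effects, 5 are known by clone names only. FP015791.1 stood at 14.9, 22.3 and 7.44 CPM in double embryos, 0.64, 3.34 and 0.80 in mutants, 9.32, 27.3 and 20.6 in morphants and 1.24, 3.56 and 0.88 in controls. All libraries with pbx2/4 morpholinos lay above all others, and the deviation was -0.14 (interval -1.55 to 1.27). Si:ch211-39a7.1 was likewise higher with knockdown, at 6.45, 12 and 2 CPM in double embryos, against 1 count in all mutants together, and at 3.7, 11.3 and 2.49 CPM in morphants, against 3 counts in all controls. BX005234.1 was lower with knockdown, at 6 counts in doubles and 68 in mutants, and 8 in morphants and 126 in controls.

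A pair was named for the prdm1 effect in controls. Si:ch211-158m24.12 was higher with prdm1 loss, at 42 counts in doubles and 4 in morphants, and 117 in mutants and 3 in controls. Si:ch73-6k14.1 held 5 counts in doubles and 68 in morphants, and 2 in mutants and 160 in controls (edgeR, adjusted p = 0.252 in morphants and 0.0432 in controls). It rested on few libraries, with 10 CPM in the control library of set C and at most 0.11 CPM in the other controls. Apart from FP015791.1, these genes have no interval for the deviation.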

How the data were processed

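Messenger RNA was measured in 12 libraries of pooled zebrafish embryos. The authors deposited estimated counts per gene for 31051 identifiers, not normalised, of which 13.7% were not whole (tolerance 1e-06), and these were rounded. The submitters' processing notes list TopHat 1.4, edgeR and Zv9. How reads were assigned, and with which strand setting, was not given in the sources used here. Reads of overlapping or antisense genes may thus be mixed. The deposited tables of single comparisons were not used.

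The test was edgeR's quasi-likelihood F test (edgeR 4.0.16, R 4.3.3) after TMM and filterByExpr, with group and set as terms, adjusted by Benjamini-Hochberg over 18117 genes. The pairing comes from column names, and 18 same-set pairs of libraries correlated at 0.448 or more. The biological coefficient of variation was 0.0754 with the set and 0.212 without. The standard error is the absolute log2 value over the square root of F, and intervals use the fit's degrees of freedom (median 13.7). The size needed for a call is that at which a gene alone would reach 0.05 over the number of genes tested in the edgeR test. Intervals were left out for 84 genes with under 10 counts in a group, a limit chosen after seeing the data. Deviations per set use log2 CPM with a prior count of 2. Distances to product and sum were taken on log2 values with 0.1 CPM as a pseudocount, also chosen after seeing the data. Negative sums counted as the pseudocount. Linear-scale values were planned for called genes, and since there were none they are given for named ones.

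Genes were named by these rules. The first took the targeted genes, myosin heavy chains, myl1 and mylz2. The next took the 10 of smallest standard error among genes called in both single losses. Another took the 5 largest effects of each single loss among genes averaging at least 1 CPM and called in that loss alone. The last took the 5 smallest p-values of the deviation. One gene of the last but one rule is not reported here. Other genes shown were chosen after their values were seen. Members and the 29 lists were chosen with earlier results of these data known, and 49 list entries matched no identifier. The test was checked on simulated counts that held no effect of either single loss. Deviations were placed there only in genes of middle to high level, so their recovery in low genes was not checked. Alternatives were no block, DESeq2 1.42.0 and its size factors, limma 3.58.1, other filters, and leaving out each library and each set. One count was worth 0.0572 to 0.115 CPM.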

Additional observations from a re-analysis of the deposited data

Results flagged for a closer look

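The sign of the prdm1 effect was compared set by set in the 59 named genes only. In 3 of low level it pointed one way in every set of pbx2/4 morphants and the opposite way in every set of controls. None of these differences passed the interaction test. All 3 were named for a small p of the deviation, which favours opposite signs, so the pattern is a description only. CU302436.2 had a deviation of -3.60 (edgeR, adjusted p = 0.889) and stood at 0.00, 0.21 and 0.11 CPM in double embryos, 0.64, 1.89 and 0.40 in mutants, 0.48, 1.92 and 0.48 in morphants and 0.21, 1.1 and 0.38 in controls. With 4 counts in all double libraries together, it has no interval. LRFN2 (2 of 2), a synaptic adhesion protein, had a deviation of 1.34 (adjusted p = 1) and averaged 2.85 ± 0.78 CPM in double embryos, 3.42 ± 1.01 in mutants, 1.67 ± 0.57 in morphants and 5.27 ± 1.74 in controls (SD over 3 libraries). CR388013.2 had a deviation of 1.88 (adjusted p = 1) and averaged 3.67 ± 0.94 CPM in double embryos, 2.17 ± 0.22 in mutants, 1.67 ± 1.03 in morphants and 3.79 ± 0.60 in controls.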

How the results depend on the processing

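The deviation gave 0 calls in all 21 alternatives, with 103 genes (no block) to 763 (without set B) at an unadjusted p under 0.05. Without the replicate block the single effects gave 27 calls for prdm1 in morphants, 35 for prdm1 in controls, 247 for pbx2/4 in prdm1-/- and 260 for pbx2/4 in prdm1+/+ embryos, against 218, 199, 2935 and 3203 with it. Leaving out a library or a set gave 73 to 235, 59 to 233, 950 to 3132 and 1423 to 3176 calls, the fewest in each case without all of set A. Single libraries also mattered: prdm1 in morphants gave 100 to 131 calls without the double library of set A or the morphant or double library of set C, and prdm1 in controls gave 99 to 114 without the mutant or control library of set A or C. The pbx2/4 effect in prdm1-/- embryos gave 1674 to 1852 calls without the double or mutant library of set A or the mutant library of set C, and in prdm1+/+ embryos 1956 to 2060 without the morphant library of set C or the control library of set A or C. The deviation of the summed slow myosin heavy chains ran from -1.25 without set B (adjusted p = 0.161) to -0.42 without set A, and was -1.17 without the double library of set B. Of 59 named genes, 34 kept their sign in every alternative that tested them. Some were filtered out of a few alternatives, such as myhc4, which was tested in 17 of 21. Depth limits low genes: below 3.29 CPM few deviations under 1 log2 unit could be bounded.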

Other observations

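Several lists outside muscle and hindbrain lay to one side of 0 without any member being called, while 9225 of all 18117 genes tested lay above 0. In endothelium, 21 of 26 genes had a positive deviation, with a median of 0.11 and a median pbx2/4 effect of -0.13 in prdm1-/- and -0.33 in prdm1+/+ embryos. In the Hedgehog list, 6 of 29 were positive, with a median of -0.04. Ribosomal protein genes had 57 of 75 above 0 with a median of 0.03, and all 75 intervals lay within 1 log2 unit of 0. Genes of a list share libraries and are not independent, so these counts are descriptions.

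Egln3, a prolyl hydroxylase induced by low oxygen, and ankrd37 had deviations of 1.44 and 1.02 (edgeR, adjusted p = 1 for both), noticed after their values were seen. Egln3 stood at 35.4, 1.89 and 3.21 CPM in double embryos, 17.0, 2.56 and 4.31 in mutants, 9.24, 2.5 and 3.39 in morphants and 26.0, 3.21 and 5.04 in controls. Set A was the highest in every group, and its deviation was 2.53, against -0.07 and 0.14 in sets B and C. For ankrd37, set A was also the highest in every group, and the sets gave 1.85, -0.01 and 0.64. Echdc1, at 3 counts in controls, had a deviation of -3.00 with no interval.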
